A study of Mus musculus with 24 samples.

Results

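The homeostatic microglia genes described here are P2ry12, P2ry13, Gpr34, Tmem119, Fcrls, Crybb1, Olfml3 and Sparc, 8 genes chosen by name because they are widely used to mark resting microglia, out of 45706 genes listed in the count table. RNA was sequenced from brain, liver, peritoneum and lung macrophages of female C57BL/6J mice aged 8 to 12 weeks, with 3 libraries in each of 8 groups. The ex vivo groups were FACS sorted, namely microglia (MG) on CD45 and CD11b, Kupffer cells (KCs) on CD45, CD11b, F4/80 and TIM-4, peritoneal macrophages (PMs) on CD45, CD11b, F4/80 and CD115, and alveolar macrophages (AMs) on CD45, CD11b and SiglecF. The in vitro groups were cultured from unsorted cell suspensions of the same organs and are called MG-, KC-, PM- and AM-like cells (LCs), or together tissue-resident macrophage-like cells (TRM-LCs). MG-LCs received macrophage colony-stimulating factor (M-CSF) and interleukin (IL)-34, KC- and PM-LCs received M-CSF, and AM-LCs received granulocyte-macrophage colony-stimulating factor (GM-CSF) without glucose. All cultures grew on polyethylenimine-coated plastic with a single partial medium change, and AM-LCs alone were kept at atmospheric instead of reduced oxygen. KC- and PM-LCs thus shared their medium and oxygen and differed by organ. For MG-LCs the organ and IL-34 cannot be told apart, and for AM-LCs the organ, GM-CSF, the glucose and the oxygen cannot be told apart. Cells of several mice shared a flask for brain, lung and peritoneum, and no source used here says which libraries come from the same animals, so that p-values measure the spread between these libraries only.

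The library totals ran from 29569486 to 47105111 counted reads (median 35965750). Expression is given as CPM (counts scaled to a common library size, by the TMM method over all 24 libraries), and 3 reads correspond to 0.0661 to 0.114 CPM depending on the library, which covers counting error only. Replicates differed by more than counting noise in every group. The chi-squared of their counts, divided by its degrees of freedom, was lowest for a pair of sorted MG libraries (12.9) and highest for a pair of MG-LC libraries (845). Markers of the labelled macrophages were high in the sorted group they belong to: 5 Kupffer cell genes summed to 14431 to 25486 CPM in KCs, 4 peritoneal genes to 6789 to 7189.6 CPM in PMs and 5 alveolar genes to 20871 to 23886 CPM in AMs, against at most 68.7 CPM for any of these lists in sorted MG. MG-LC replicate 1 stood apart from the other cultures. Its 8 fibroblast and mesothelial markers summed to 30968 CPM, compared with 7.39 and 1012 CPM in MG-LC replicates 2 and 3 and with 0.167 to 0.27 CPM in sorted MG, and its 8 general macrophage genes summed to 2781 CPM, compared with 8191 and 9255 CPM. In bulk RNA, fewer cells of a type and less RNA per cell cannot be told apart, and values without this library, computed after the data were seen, are given beside the results that it moved.

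Microglia are the resident macrophages of the brain parenchyma. In the undisturbed brain they express receptors that sense nucleotides and lipids around them, along with surface and secreted proteins that most other macrophages make little of, and this homeostatic program depends on signals from the brain such as transforming growth factor beta and on transcription factors such as Sall1 acting beside the macrophage factor PU.1. P2ry12 and P2ry13 are receptors for adenosine diphosphate, and P2ry12 steers microglial processes towards tissue damage. Gpr34 is a receptor for lysophosphatidylserine. Tmem119 is a transmembrane protein and Fcrls an Fc receptor-like protein, Crybb1 encodes a beta-crystallin first known from the lens, Olfml3 a secreted olfactomedin-like protein, and Sparc a matricellular protein that is also made by fibroblasts and many other stromal cells.

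The genes are spread over 4 chromosomes of the mouse genome (GRCm38), and all of them are protein coding. P2ry12 (ENSMUSG00000036353, chr3:59216272-59262871, minus strand) and P2ry13 (ENSMUSG00000036362, chr3:59207892-59210882, minus strand) neighbour each other. P2ry13 lies within the body of Med12l, which is read from the plus strand, and 9 exon bases of P2ry12 (0.35%) overlap an exon of Med12l. Gpr34 (ENSMUSG00000040229, chrX:13632089-13640858, plus strand) lies within the body of Cask with no shared exon base. Tmem119 (ENSMUSG00000054675, chr5:113793729-113800516, minus strand), Fcrls (ENSMUSG00000015852, chr3:87250758-87263738, minus strand), Crybb1 (ENSMUSG00000029343, chr5:112255815-112269585, plus strand), Olfml3 (ENSMUSG00000027848, chr3:103722222-103738001, minus strand) and Sparc (ENSMUSG00000018593, chr11:55394500-55423183, minus strand) overlap no other gene.

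The 250 bases before the start site were available in RefSeq (GRCm38.p6) for 6 of the 8 genes. They were searched on both strands for AGGAAG, a core sequence bound by PU.1 and other ETS factors. It was present in 4 of the 6 windows, those of P2ry12, P2ry13, Fcrls and Olfml3, compared with 29.5% of 32851 windows of the same length. CAGAC, a short sequence bound by SMAD factors, was found in 4 of the 6 windows (P2ry12, Fcrls, Crybb1 and Sparc) compared with 42.2% of all windows. TGACTCA, the AP-1 sequence, was in 0 of the 6 and in 4.46% of all windows. A match describes these letters only, and binding was not measured. The windows of P2ry12 (chr3:59262986-59263235, minus strand), P2ry13 (chr3:59210883-59211132, minus strand) and Fcrls (chr3:87263525-87263774, minus strand) are shown as examples with a match. Each nucleotide receptor carries 1 match and Fcrls carries 4. The window of Crybb1 (chr5:112255570-112255819, plus strand) is shown as an example without a match. Sparc also had no match, and Olfml3 had 1. A relation between matches and expression was not tested. Capitals mark AGGAAG or its reverse complement, and each sequence runs 5′ to 3′ on the strand of the gene.
P2ry12: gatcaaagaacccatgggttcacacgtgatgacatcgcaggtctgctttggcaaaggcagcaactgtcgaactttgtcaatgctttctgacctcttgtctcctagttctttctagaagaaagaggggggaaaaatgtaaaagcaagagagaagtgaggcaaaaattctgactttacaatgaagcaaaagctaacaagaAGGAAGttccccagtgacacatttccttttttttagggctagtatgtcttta
P2ry13: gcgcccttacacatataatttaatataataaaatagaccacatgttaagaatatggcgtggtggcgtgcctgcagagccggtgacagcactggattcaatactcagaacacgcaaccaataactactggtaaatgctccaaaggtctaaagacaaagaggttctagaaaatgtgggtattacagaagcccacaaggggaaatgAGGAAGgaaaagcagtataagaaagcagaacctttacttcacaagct
Fcrls: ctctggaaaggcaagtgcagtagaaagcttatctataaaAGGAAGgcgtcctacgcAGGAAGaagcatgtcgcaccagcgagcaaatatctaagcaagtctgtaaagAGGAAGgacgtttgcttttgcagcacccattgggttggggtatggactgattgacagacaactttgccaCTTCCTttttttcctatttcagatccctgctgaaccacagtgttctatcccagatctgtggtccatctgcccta
Crybb1: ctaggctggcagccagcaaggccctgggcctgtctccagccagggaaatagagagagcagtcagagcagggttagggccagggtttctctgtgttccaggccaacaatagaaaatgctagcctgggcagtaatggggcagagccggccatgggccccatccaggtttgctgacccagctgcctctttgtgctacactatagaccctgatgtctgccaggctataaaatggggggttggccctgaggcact
Counted from the start site, the match begins at -52 in P2ry12 and at -47 in P2ry13. In Fcrls the matches begin at -211, -194, -143 and -74. The RefSeq start sites used here can differ from the gene bounds given above. Most of the Fcrls window, with all its matches, lies inside those bounds, as does the whole Sparc window.

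All 8 genes were abundant in sorted MG and varied little between the 3 libraries. Together they took 2.88% to 2.98% of all counts in MG, 0.0251% to 0.066% in KCs, 0.0194% to 0.0207% in AMs and 0.00287% to 0.00387% in PMs. In MG-LCs they took 0.368%, 0.0536% and 0.145% in replicates 1, 2 and 3. Levels of different genes were compared as CPM per kb of exon. On that scale the highest mean level in sorted MG was 2166 CPM per kb for P2ry12, followed by 1898 for Tmem119, 1412 for Fcrls, 971 for Sparc, 916 for P2ry13, 912 for Gpr34, 469 for Olfml3 and 242 for Crybb1. P2ry13 and Gpr34 did not differ beyond their spread (SD of 42.2 and 32.5 CPM per kb, n = 3). In MG-LCs the order was another one, with Sparc (267 CPM per kb) and Fcrls (235) first, Gpr34 (33.3), Tmem119 (10.2), P2ry13 (7.59) and Olfml3 (7.34) next, and P2ry12 (4.33) and Crybb1 (0.104) last. The places of Sparc and Tmem119 rested on MG-LC replicate 1. Without it the order was Fcrls (307 CPM per kb), Gpr34 (48.7), Sparc (24.8), P2ry13 (10.4), P2ry12 (6), Olfml3 (5.13), Tmem119 (2.19) and Crybb1 (0.156). The coefficient of variation of the 8 genes was 0.918% to 9.86% in sorted MG and 53.1% to 157% in MG-LCs, and 15% to 136% in the 2 MG-LC libraries left without replicate 1.

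**Figure D1:**
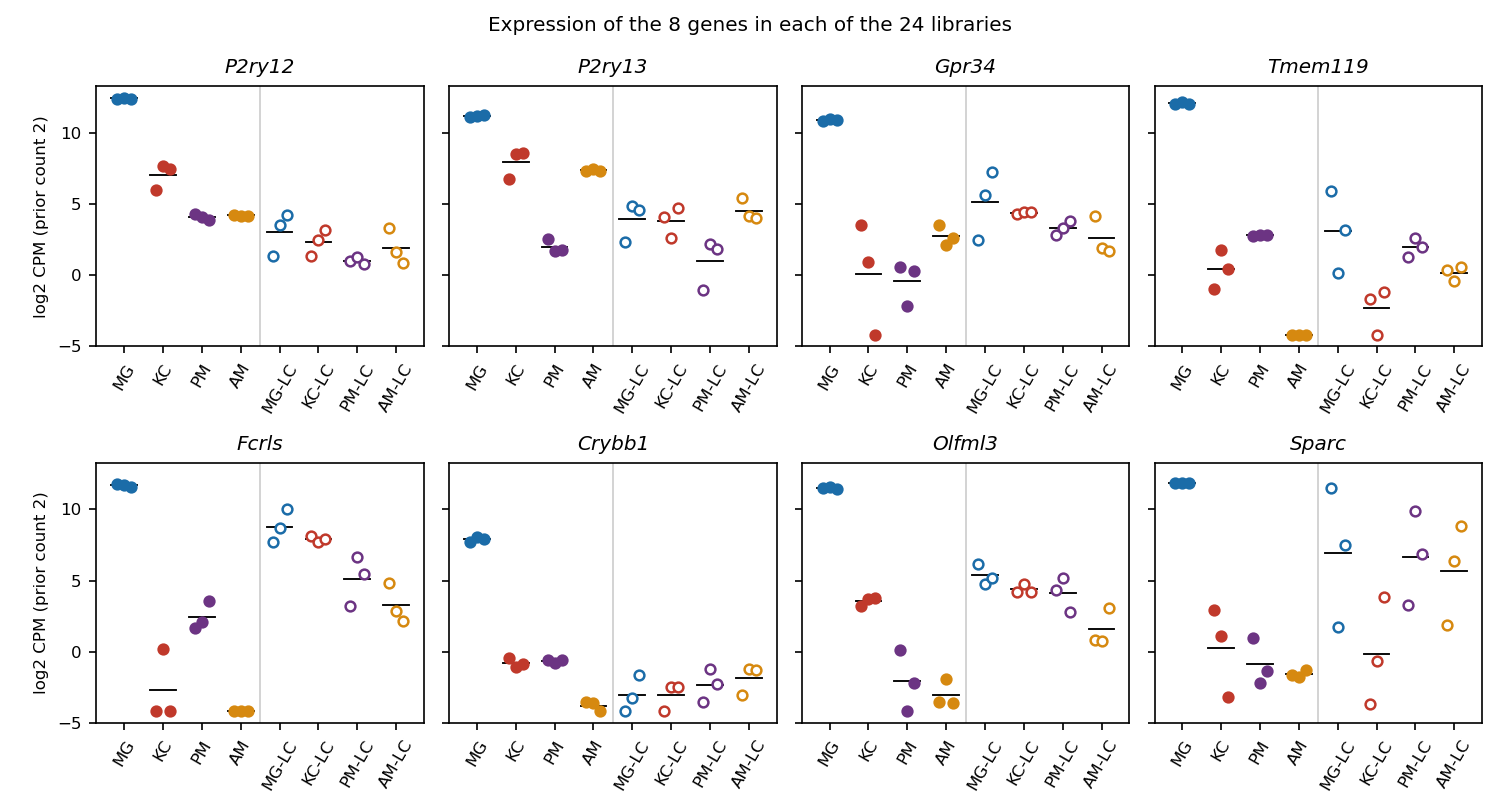
Expression of the 8 genes in each of the 24 libraries, as log2 CPM with a prior count of 2 (y axis) for the 4 sorted groups (filled points) and the 4 cultured groups (open points, LC). Each point is 1 library and the horizontal line is the mean of the 3 log2 values, points at about -4 had no reads, and the sorted MG libraries lie above every other library in each panel.

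To compare freshly sorted with cultured microglia, the 3 MG and the 3 MG-LC libraries were tested with edgeR over 14416 genes. Of the 8 genes, 7 were higher in MG with a Benjamini-Hochberg adjusted p under 0.05 and 0 were lower, while 21.2% of all genes tested were higher and 25.2% lower. All 8 had every MG library above every MG-LC library, as did 35.3% of all genes tested. The median log2 fold change of the 8 genes was 6.41, compared with -0.03 over all genes tested.

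The nucleotide receptors were strongly reduced in culture. P2ry12 had 5389, 5692 and 5459.5 CPM in the 3 sorted MG libraries and 2.49, 11.7 and 18.9 CPM in the 3 MG-LC libraries. All MG-LC libraries were thus low, with MG-LC replicate 1 the lowest, and as a mean they held 0.2% of the sorted level, a 501-fold difference of the mean CPM. The log2 fold change was 8.93 ± 0.99 (SE, n = 3 per group, edgeR adjusted p = 0.00188). P2ry13 had 2211, 2315 and 2424 CPM in MG and 4.9, 29.1 and 23.5 CPM in MG-LCs. MG-LC replicate 1 was again the lowest, the other two were close to each other, and the cultured mean was 0.828% of the sorted one. P2ry13 differed by a log2 fold change of 6.88 ± 0.80 (SE, n = 3 per group, edgeR adjusted p = 0.00213). Leaving out any 1 library kept both genes past the threshold, with log2 fold changes of 8.44 to 9.56 for P2ry12 and 6.41 to 7.32 for P2ry13.

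Gpr34, the lipid receptor, had 1854, 1982 and 1880 CPM in MG and 5.52, 49.2 and 154 CPM in MG-LCs. The cultured libraries were spread over a 28-fold range, with replicate 1 low and replicate 3 at 8.1% of the sorted mean. The log2 fold change was 4.74 ± 1.15 (SE, n = 3 per group, edgeR adjusted p = 0.0184). This call was lost when MG replicate 1, 2 or 3 or MG-LC replicate 2 was left out (adjusted p = 0.0618, 0.0618, 0.0621 and 0.0578), at log2 fold changes of 4.77, 4.72, 4.76 and 4.55.

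Of the surface proteins, Tmem119 fell almost completely in culture while Fcrls fell the least of the genes that passed the test. Tmem119 had 4313, 4612 and 4255 CPM in MG and 60.5, 1.07 and 9.08 CPM in MG-LCs. Here MG-LC replicate 1, the lowest library for both nucleotide receptors, was the highest, and without it the cultured mean was 0.116% of the sorted one instead of 0.536%. The log2 fold change of Tmem119 was 7.48 ± 1.60 (SE, n = 3 per group, edgeR adjusted p = 0.0124). Fcrls had 3470.4, 3301 and 3117 CPM in MG and 211, 404 and 1028 CPM in MG-LCs, which is 6.39%, 12.3% and 31.2% of the sorted mean. No MG-LC library reached the sorted range, but all 3 stayed above 200 CPM. The log2 fold change of Fcrls was 2.55 ± 0.64 (SE, n = 3 per group, edgeR adjusted p = 0.02), and the adjusted p rose to 0.0739, 0.0717 and 0.0692 without MG replicates 1, 2 and 3, to 0.0595 without MG-LC replicate 2 and to 0.0505 with all 24 libraries in one model.

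Crybb1 was the gene nearest to absence in culture. It had 214, 261 and 239.8 CPM in MG and 0, 0.0498 and 0.257 CPM in MG-LCs, that is 0, 2 and 9 reads. The values of MG-LC replicates 1 and 2 are below the floor of 3 reads, so that the level could be read only in MG-LC replicate 3. The log2 fold change was 11.15 ± 0.95 (SE, n = 3 per group, edgeR adjusted p = 0.001). Over all 14416 genes, only 8 had a larger log2 fold change in favour of MG.

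The secreted proteins Olfml3 and Sparc differed from each other. Olfml3 had 2931, 3025 and 2715 CPM in MG and 72.5, 27.1 and 36.1 CPM in MG-LCs, the narrowest range of the 8 genes among the cultured libraries (2.67-fold). Its log2 fold change was 5.95 ± 0.55 (SE, n = 3 per group, edgeR adjusted p = 0.00116). Sparc had 3691, 3705 and 3640.4 CPM in MG and 2849.6, 3.31 and 185 CPM in MG-LCs, an 860.2-fold range between cultured libraries. It was almost at the sorted level in MG-LC replicate 1 (77.5% of the sorted mean) and far below it in replicate 2 (0.09%) and replicate 3 (5.03%). Sparc did not pass the test, with a log2 fold change of 1.80 ± 1.77 (SE, n = 3 per group, edgeR adjusted p = 0.426). Its approximate 95% interval was -1.66 to 5.26. Without MG-LC replicate 1 the log2 fold change was 5.23 (edgeR adjusted p = 0.0402). All 8 genes were then higher in MG, compared with 25.8% of all genes.

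**Figure D2:**
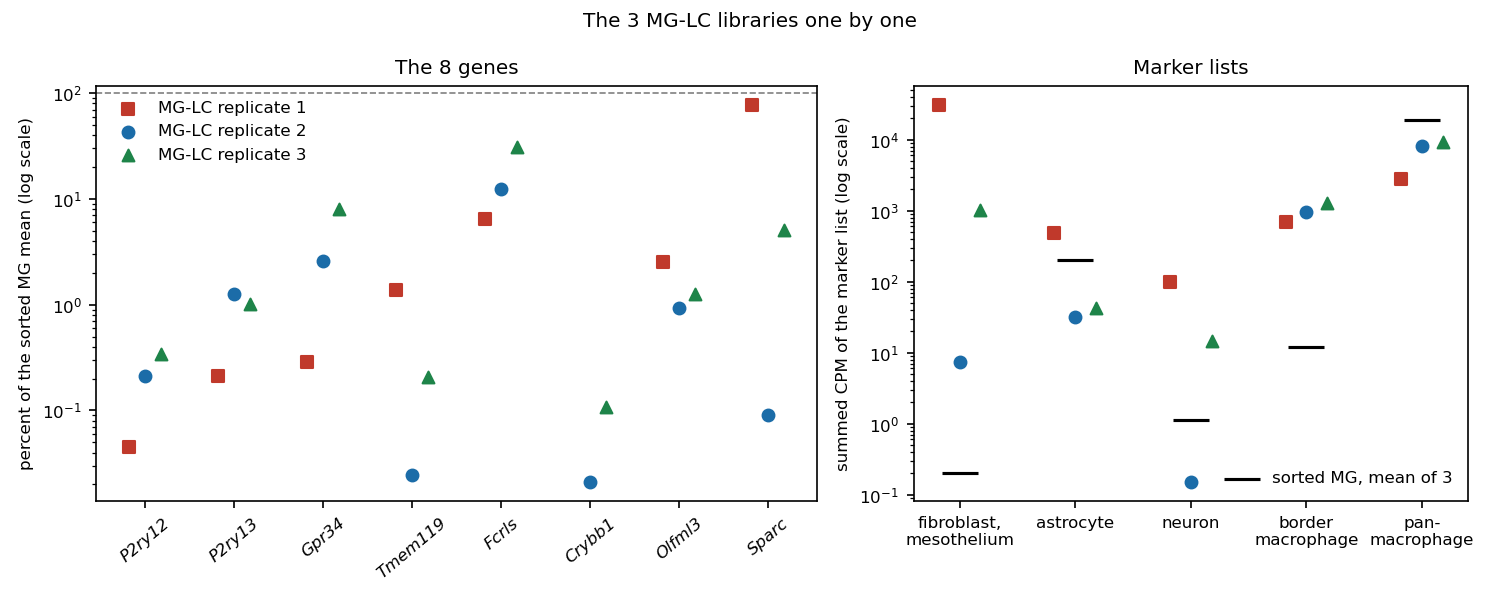
Left, the 8 genes in each MG-LC library as percent of the sorted MG mean (log axis, dashed line at 100%), where Crybb1 in replicate 1 had no reads and is not drawn. Right, the summed CPM of 5 marker lists in the same libraries (log axis) with the sorted MG mean as a black dash. Replicate 1 is the highest library for Tmem119, Olfml3 and Sparc and for the fibroblast, astrocyte and neuron markers, and the lowest for P2ry12, P2ry13, Gpr34, Fcrls and Crybb1 and for the general macrophage genes. Its astrocyte and neuron sums are mostly Gja1 and Stmn2.

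The 8 genes did not move together across the 3 MG-LC libraries. Replicate 1 held the highest level of 3 of them (Tmem119, Olfml3 and Sparc) and the lowest level of the other 5, replicate 2 held the highest level of P2ry13, and replicate 3 held the highest level of 4 (P2ry12, Gpr34, Fcrls and Crybb1). The markers of other cells differed between the same libraries. In replicate 1, 7 of the 8 fibroblast and mesothelial markers had at least 3 reads, with Col3a1 at 14986 CPM, compared with 4 and 6 of the 8 in replicates 2 and 3, while the mesothelial marker Upk3b had no reads in any of the 3. Astrocyte markers summed to 491, 31.5 and 42.9 CPM in MG-LC replicates 1, 2 and 3 and to 198 to 201 CPM in MG, and neuron markers to 99.5, 0.149 and 14.4 CPM and to 1.08 to 1.24 CPM. Single genes set these sums. The astrocyte sum was almost wholly Slc1a3 in MG (196 to 200.4 CPM) and mostly Gja1 in MG-LC replicate 1 (440.2 CPM), where Gfap had 2.46 CPM. The neuron sum of that library was mostly Stmn2 (87.3 CPM). Oligodendrocyte markers summed to 265, 108 and 223 CPM in MG-LCs and 76.8 to 89.6 CPM in MG, endothelial markers to 20.9, 25.1 and 9.6 CPM and to 8.69 to 10.1 CPM, and monocyte markers to 102, 1.07 and 6.54 CPM and to 4.14 to 4.84 CPM. Mbp and Kdr were the top genes of the oligodendrocyte and endothelial lists in all these libraries. The monocyte sum of MG-LC replicate 1 was mostly Plac8 (89.4 CPM). Hepatocyte, B cell and platelet markers summed to 20.3 to 132, 34.1 to 37.8 and 26.5 to 34.2 CPM in MG and to at most 0.672, 2.7 and 4.77 CPM in MG-LCs. The MG sums were mostly Ttr (19.2 to 131 CPM), Cd79b (33.8 to 37.7 CPM) and Gp9 (25.8 to 33.6 CPM). Markers of border macrophages, the macrophages of the meninges and vessels, summed to 694, 946 and 1290 CPM in MG-LCs and to 10.7 to 14.3 CPM in MG, and most of this sum was Ms4a7 (593, 639 and 807 CPM). Ms4a7 was also the top gene of this list in all KC-LC libraries. The part of any of these cells in the levels of the 8 genes was not tested. Without replicate 1, the mean of MG-LC replicates 2 and 3 relative to sorted MG was 0.277% for P2ry12, 1.14% for P2ry13, 5.34% for Gpr34, 0.116% for Tmem119, 21.7% for Fcrls, 0.0644% for Crybb1, 1.09% for Olfml3 and 2.56% for Sparc.

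In each of the 4 cultures, the 3 libraries had the same order for Sparc as for the summed fibroblast and mesothelial markers. The highest Sparc level was in MG-LC replicate 1 (2849.6 CPM, with fibroblast and mesothelial markers at 30968 CPM), KC-LC replicate 3 (14.5 CPM, markers at 29.8 CPM), PM-LC replicate 2 (942 CPM, markers at 2208 CPM) and AM-LC replicate 3 (469 CPM, markers at 1667 CPM), and each of these libraries also had the highest marker sum of its group. In sorted MG, Sparc stood at 3640.4 to 3705 CPM with these markers at 0.167 to 0.27 CPM in sum. The part of fibroblasts or mesothelial cells in the Sparc levels was not tested.

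**Figure D3:**
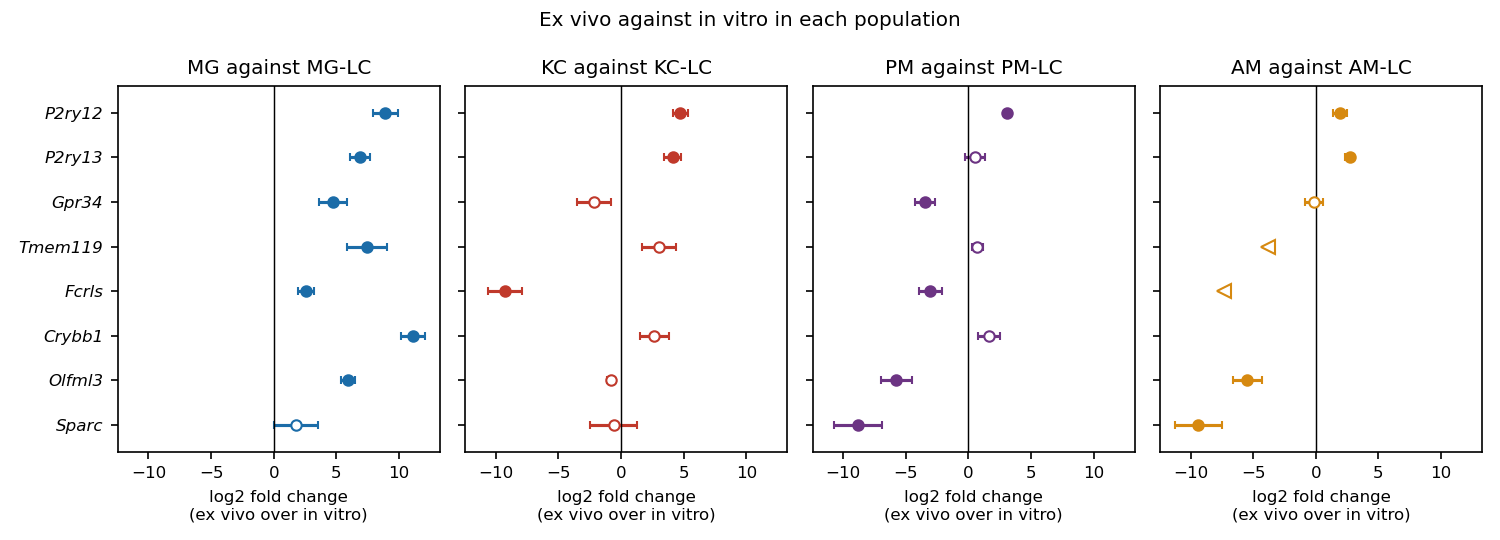
Log2 fold change of the 8 genes between sorted and cultured cells in MG, KCs, PMs and AMs (x axis, positive values stand for higher expression ex vivo), with SE bars derived from the edgeR test. Filled points passed an adjusted p of 0.05 and open points did not, and triangles for AMs are bounds because sorted AMs had no reads of Tmem119 and Fcrls, while Crybb1 was not tested there. In MG, all 8 points lie to the right of 0, whereas P2ry12 alone is filled on the right in all 4 populations.

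The same comparison in the other macrophages gave a mixed picture. P2ry12 was higher ex vivo in KCs, PMs and AMs and P2ry13 in KCs and AMs, whereas Fcrls was higher in culture in all 3 and Olfml3 and Sparc in PMs and AMs. In KCs (13629 genes tested), 2 of the 8 genes were higher ex vivo and 1 was higher in culture, compared with 19.4% and 14.4% of all genes tested. P2ry12 had 63.4, 201 and 172 CPM in KCs and 2.42, 5.43 and 8.85 CPM in KC-LCs (log2 fold change 4.74 ± 0.63 SE, edgeR adjusted p = 0.00201). P2ry13 had 109, 360.4 and 380 CPM in KCs and 17.3, 6.15 and 26.8 CPM in KC-LCs (log2 fold change 4.11 ± 0.68 SE, edgeR adjusted p = 0.00437). For both, KC replicate 1 was the lowest sorted library, yet it lay above all KC-LC libraries. Fcrls went the other way and was nearly absent from sorted KCs, with 0, 1.09 and 0 CPM, but had 274, 206 and 237 CPM in KC-LCs (log2 fold change -9.30 ± 1.35 SE, edgeR adjusted p = 0.00271). Its 42 reads in sorted KCs all came from replicate 2, so that the size of this value depends on that library, and it was -8.71 to -16.16 with 1 library left out, at adjusted p of 0.00125 to 0.0151. The remaining 5 genes did not pass, with log2 fold changes between -2.19 for Gpr34 and 3.01 for Tmem119. Gpr34 in KCs (11.6, 1.82 and 0 CPM, against 19.5, 22.1 and 21.4 CPM in KC-LCs) passed when KC replicate 1 was left out (log2 fold change -4.51, edgeR adjusted p = 0.0307). Sparc in KC-LCs rested on replicate 3 (14.5 CPM, against 0.024 and 0.573 CPM). Markers of other cells were also higher in sorted KCs, namely 5 of 5 hepatocyte markers (88.8 to 213 CPM in sum, against 0.024 to 0.0747 CPM in KC-LCs), 5 of 5 B cell markers (82 to 120.5 against 0.378 to 1.05 CPM), 5 of 5 monocyte markers (143 to 372 against 1.54 to 4.51 CPM) and 2 of the 4 endothelial markers tested (241 to 359 against 14.8 to 40.5 CPM). The endothelial sum of sorted KCs was mostly Stab2 (203 to 358 CPM). Kdr of the same list stood at 0.0856 to 19.2 CPM in KCs and 13.5 to 39.7 CPM in KC-LCs. The 3 astrocyte markers tested were higher in KCs too (80.5 to 131 against 12 to 26.8 CPM over the whole list). The part of any of these cells in the KC values was not tested.

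In PMs (13581 genes tested), 1 of the 8 genes was higher ex vivo and 4 were higher in culture, compared with 12.1% and 16.8% of all genes tested. These shares varied with single libraries, from 795 to 2646 genes higher and 1279 to 2787 lower with 1 library left out. P2ry12 had 20.1, 16.6 and 14.6 CPM in PMs and 1.91, 2.4 and 1.65 CPM in PM-LCs (log2 fold change 3.11 ± 0.31 SE, edgeR adjusted p = 0.000508), with little spread in either group. P2ry13 stood at 5.81, 3.11 and 3.33 CPM in PMs and 0.42, 4.54 and 3.59 CPM in PM-LCs, where the groups overlapped. The genes higher in PM-LCs were Gpr34 (log2 fold change -3.47, adjusted p = 0.0149), Fcrls (-3.04, 0.0418), Olfml3 (-5.75, 0.0145) and Sparc (-8.82, 0.0142) with edgeR. Sorted PMs held at most 1.94 CPM of Gpr34, Olfml3 and Sparc, and PM-LC replicate 2 was the highest culture for Fcrls (103 CPM), Olfml3 (36 CPM) and Sparc (942 CPM). None of these 4 passed without PM replicate 3 (adjusted p = 0.0602, 0.0606, 0.0757 and 0.0737 in the order above). Sparc and Fcrls also failed without PM replicate 2 (0.0663 and 0.146), and Fcrls without PM replicate 1 (0.147) or PM-LC replicate 2 or 3 (0.0766 and 0.0524). Neither passed with limma-voom (adjusted p = 0.222 for Sparc and 0.0986 for Fcrls). The groups overlapped for Fcrls, with 3.07, 4.09 and 11.8 CPM in PMs and 9.11, 103 and 44.4 CPM in PM-LCs. Of the 8 fibroblast and mesothelial markers, 7 were higher in PM-LCs as well (22.9 to 2208 CPM in sum, against 0.191 to 12.8 CPM in PMs), and their part in these values was not tested.

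In AMs (13196 genes tested), 2 of the 7 genes tested were higher ex vivo and 4 higher in culture, compared with 22.9% and 25.9% of all genes tested. P2ry13 had 158, 174 and 161 CPM in AMs and 43.2, 17.6 and 15.8 CPM in AM-LCs (log2 fold change 2.69 ± 0.37 SE, edgeR adjusted p = 0.00125). P2ry12 had 19.1, 18 and 17.8 CPM in AMs and 9.8, 3.02 and 1.76 CPM in AM-LCs (log2 fold change 1.92 ± 0.57 SE, edgeR adjusted p = 0.0277), and this call was lost without AM replicate 1, 2 or 3 or AM-LC replicate 2 (adjusted p = 0.0774, 0.0747, 0.0723 and 0.0715). Tmem119 and Fcrls had no reads in any sorted AM library. Against the floor of 3 reads in each library, Tmem119 (1.24, 0.687 and 1.4 CPM in AM-LCs) was at least 13.8-fold higher in culture and Fcrls (27.9, 7.33 and 4.34 CPM) at least 164-fold, with edgeR adjusted p of 0.00263 and 0.00254. Olfml3 (-5.49, adjusted p = 0.00691) and Sparc (-9.40, adjusted p = 0.00586) were the other genes higher in AM-LCs with edgeR, from levels of at most 0.348 CPM in sorted AMs. Sparc in AMs did not pass with limma-voom (-7.38, adjusted p = 0.314). All 5 fibroblast and mesothelial markers tested were higher in AM-LCs too (17 to 1667 CPM over the whole list, against 0.0746 to 0.657 CPM in AMs), and their part was not tested. Crybb1 had 2 reads in all sorted AM libraries together and was not tested.

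Whether the signed log2 difference, sorted minus cultured, was higher in MG than in the mean of the other populations was tested as the interaction of population and culture, over 17408 genes and 24 libraries. It was higher in MG for 8 of the 8 genes, compared with 7.55% of all genes tested. This is a statement of direction and not of absolute size. The genes were chosen as microglia genes, and those near the floor in the other sorted groups could hardly fall there in culture. Crybb1 had 58, 60 and 2 reads in all over sorted KCs, PMs and AMs, so that its contrast followed mainly from the MG libraries. For Sparc, the difference was 1.80 and not called in MG and -8.82 and -9.40 in PMs and AMs, and for Fcrls it was 2.55 in MG and -9.30 in KCs, so that the contrast of these genes came from opposite directions. The contrast on the log2 scale was 5.73 for P2ry12 (edgeR adjusted p = 2.85e-05), 4.49 for P2ry13 (0.000744), 6.74 for Gpr34 (0.00235), 10.99 for Crybb1 (1.51e-07), 10.01 for Olfml3 (3.26e-06) and 8.12 for Sparc (0.0318). Tmem119 (9.09, adjusted p = 0.000209) and Fcrls (10.68, adjusted p = 0.000127) had no reads in sorted AMs, and with the AM values set at their bounds their interactions were 7.57 and 9.16. The smallest of the 8 was that of P2ry13, a gene that was also higher ex vivo in KCs and AMs. Sparc lost its call without any 1 of the MG libraries (adjusted p = 0.0536, 0.0527 and 0.0524), without MG-LC replicate 2 (0.0625) or 3 (0.0924), or without KC-LC replicate 3 (0.0523).

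Among the sorted cells (15732 genes tested), all 8 genes were higher in MG than in the mean of KCs, PMs and AMs, and all 8 had every MG library above every other sorted library. Of all genes tested, 26.2% were higher in MG and 17.2% showed no overlap in this direction. The median log2 fold change of the 8 genes was 11.07, compared with 0.05 over all genes. The gap was smallest for the nucleotide receptors, with log2 fold changes of 7.22 ± 0.26 for P2ry12 and 5.29 ± 0.29 for P2ry13 (SE, n = 3 per group, edgeR adjusted p = 3.61e-09 and 5.09e-08). Crybb1 reached 10.27 ± 0.18 and Olfml3 11.87 ± 0.55 (SE, edgeR adjusted p = 3.63e-11 and 1.48e-08), and Gpr34 and Sparc 9.21 ± 0.85 and 11.94 ± 0.84 (SE, edgeR adjusted p = 3.87e-06 and 3.92e-07).

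Taken population by population, all 8 genes were higher in MG than in KCs, PMs and AMs, compared with 17.5%, 20.6% and 27.4% of all genes tested. P2ry13 was the gene nearest to microglial levels elsewhere. It stood at 109 to 380 CPM in KCs and 158 to 174 CPM in AMs, log2 fold changes of 2.98 and 3.78 below MG, but at 3.11 to 5.81 CPM in PMs. KCs came second for P2ry12, with 63.4 to 201 CPM, separate from AMs (17.8 to 19.1 CPM) and PMs (14.6 to 20.1 CPM), which overlapped. Tmem119 and Fcrls were the genes with the widest gap to KCs and AMs, while Olfml3 (12.85) and Sparc (12.15) had the widest gap to PMs, where Tmem119 and Fcrls differed by log2 fold changes of 9.27 and 8.97. Compared with sorted AMs, which had no reads of either, Tmem119 was at least 54708-fold and Fcrls at least 41043-fold higher in MG, and relative to KCs their log2 fold changes were 11.27 and 13.05. Sorted PMs held 6.58 to 7.1 CPM of Tmem119 and 3.07 to 11.8 CPM of Fcrls, the highest levels outside MG among sorted cells. Gpr34 in sorted KCs came almost wholly from replicate 1 (11.6, 1.82 and 0 CPM), the library with the lowest P2ry12 and P2ry13.

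**Figure D4:**
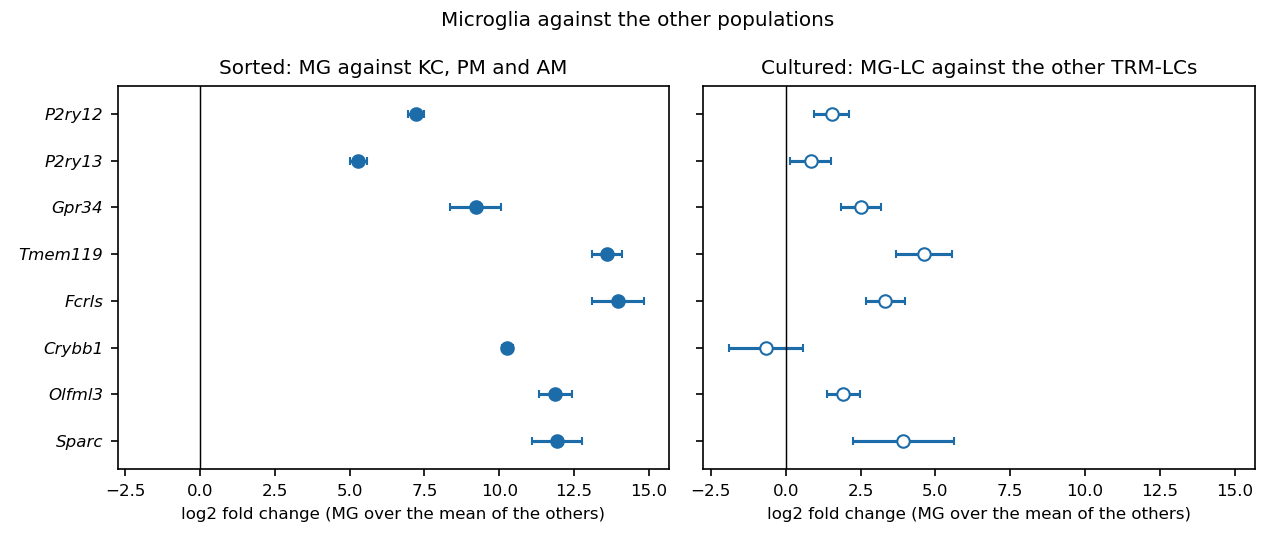
Log2 fold change of the 8 genes between microglia and the mean of the other 3 populations, among sorted cells (left) and among cultures (right), with SE bars derived from the edgeR test. Filled points passed an adjusted p of 0.05 (8 on the left, 0 on the right), and the sorted values of Tmem119 and Fcrls depend on the prior count because sorted AMs had no reads.

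Among the cultures (14813 genes tested), 0 of the 8 genes was higher or lower in MG-LCs than in the mean of the other TRM-LCs at an adjusted p of 0.05 with edgeR, where 0.338% of all genes were higher and 0.56% differed in either direction. At an unadjusted p under 0.05, 6 of the 8 genes differed, compared with 22.5% of all genes. Limma-voom also called 0 of the 8, and 0.567% of all genes. DESeq2 called 4 of the 8 (Gpr34, Tmem119, Fcrls and Olfml3), and 10.8% of all genes. The median log2 fold change of the 8 was 2.23, compared with 0.12 over all genes. Fcrls (log2 fold change 3.33, approximate 95% interval 2.07 to 4.58) and Tmem119 (4.62, 2.83 to 6.42) missed the threshold narrowly, with edgeR adjusted p of 0.0502 and 0.051. Both passed without MG-LC replicate 2 (0.0237 and 0.014). With any 1 library left out, the adjusted p ranged up to 0.146 for Fcrls (without MG-LC replicate 3) and 0.22 for Tmem119 (without MG-LC replicate 1), where the log2 fold changes were 2.49 and 2.33. The values were 2.52 for Gpr34 (1.18 to 3.87), 1.93 for Olfml3 (0.84 to 3.02), 1.54 for P2ry12 (0.39 to 2.70), 0.83 for P2ry13 (-0.48 to 2.14) and -0.66 for Crybb1 (-3.10 to 1.79). Sparc stood at 3.93 (0.64 to 7.21) and at 0.42 without MG-LC replicate 1.

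Compared with each culture in turn, Fcrls (log2 fold change 5.38, adjusted p = 0.0145) and Olfml3 (3.51, adjusted p = 0.0283) were higher in MG-LCs than in AM-LCs, where edgeR called 3.64% of all genes higher. Against KC-LCs, 0 of the 8 genes and 0 of all genes were called by edgeR, and against PM-LCs 0 of the 8 and 0.0135% of all genes were called higher, while 2 and 4 of the 8 had an unadjusted p under 0.05, as did 15.4% and 14.6% of all genes. In level, Fcrls in KC-LCs (206 to 274 CPM) overlapped the MG-LC range (211 to 1028 CPM), and P2ry13 in AM-LCs (15.8 to 43.2 CPM) overlapped that of MG-LCs (4.9 to 29.1 CPM). By mean level, MG-LCs came at rank 2 of the 8 groups for Gpr34, Tmem119, Fcrls, Olfml3 and Sparc, at rank 5 for P2ry12 and P2ry13 and at rank 6 for Crybb1. Without MG-LC replicate 1, MG-LCs kept rank 2 for Gpr34, Fcrls and Olfml3, but came at rank 3 for Tmem119 (5.08 CPM, below sorted PMs) and rank 4 for Sparc (94.1 CPM, below PM- and AM-LCs), and at rank 4 for P2ry13.

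Most other genes known from microglia were also higher ex vivo. Of 25 further microglia genes, 24 were tested in MG against MG-LCs, of which 19 were higher in MG and 1 was lower, with a median log2 fold change of 3.40, while 21.2% of all genes tested were higher and 25.2% lower. The counts were 19 and 2 without MG-LC replicate 1, compared with 25.8% and 28.9% of all genes. The largest differences were in Siglech, a sialic acid-binding lectin (10.76, edgeR adjusted p = 0.0111), the fructose transporter Slc2a5 (9.92, 0.00172) and the uroplakin Upk1b (9.36, 0.00189). At the other end, Gas6, a ligand of the TAM receptors, was higher in MG-LCs (-2.76, edgeR adjusted p = 0.0322), and the lipid receptor Trem2 (-0.06) and the G-protein regulator Rgs2 (0.65) did not pass. Trem2 was lower in MG without MG-LC replicate 1 (-0.49, edgeR adjusted p = 0.0262). Among the cultures, 2 of the 22 tested were higher in MG-LCs, compared with 0.338% of all genes, the protease inhibitor Serpine2 (5.45, edgeR adjusted p = 0.0478) and the receptor homologue Rtn4rl1 (3.28, 0.0469), while Ecscr (4.07, 0.129), Upk1b (-5.28), Tgfbr1 (-0.64) and Cd164 (-0.54) did not pass. Rtn4rl1 also passed without MG-LC replicate 1 (3.75, edgeR adjusted p = 0.0279) and Serpine2 did not (5.55, 0.0631).

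Of 10 transcription factors linked to microglia, 4 were higher in MG than in MG-LCs and 0 were lower, while 21.2% of all genes tested were higher and 25.2% lower. They were Sall1 (log2 fold change 6.43, edgeR adjusted p = 0.0105), Sall3 (4.99, 0.0109), the TGF-beta mediator Smad3 (2.51, 0.0135) and Mef2a (1.80, 0.0298). Sall1 had 680.4, 656 and 746 CPM in MG and 1.36, 1.52 and 20.7 CPM in MG-LCs. Spi1, which encodes PU.1, did not pass, with 363 to 403 CPM in MG and 109 to 399 CPM in MG-LCs. Its log2 fold change was 0.49 (approximate 95% interval -0.40 to 1.38). When MG-LC replicate 1 was left out, 8 of the 10 were higher, compared with 25.8% of all genes, and Mef2c (1.52, edgeR adjusted p = 0.00478), Irf8 (0.98, 0.00558) and Bhlhe41 (0.86, 0.0179) were among those that then passed. Among the cultures, Sall1 (7.74, edgeR adjusted p = 0.0457) and Smad3 (3.07, 0.0457) were higher in MG-LCs than in the other TRM-LCs, and without MG-LC replicate 1 Sall1 passed (8.24, 0.0322) and Smad3 did not (adjusted p = 0.0941).

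Of 19 further genes of nucleotide signalling, 14 were tested in MG against MG-LCs, and 6 were higher in MG and 5 lower, compared with 21.2% and 25.2% of all genes tested, so that the fall of P2ry12 and P2ry13 was not shared by all receptors of this kind. Those higher in MG were the ATP-gated channels P2rx1 (4.76, edgeR adjusted p = 0.0159) and P2rx7 (2.37, 0.00905), the adenosine receptors Adora3 (4.10, 0.0183) and Adora1 (2.38), the ectonucleotidase Entpd1 (2.49, 0.00579) and the potassium channel Kcnk6 (3.39). Adora1 was near the floor, with 0.617 to 1.15 CPM in MG and 0.0498 to 0.231 CPM in MG-LCs. Those higher in MG-LCs were the channel P2rx4 (-1.80, edgeR adjusted p = 0.0146), the receptors P2ry2 (-4.63, 0.000638) and P2ry14 (-5.99, 0.00167), Adora2b (-5.62, 0.0465) and P2ry1, another receptor for adenosine diphosphate. Adora2b had 0, 0 and 0.477 CPM in MG and 2.17 to 17.9 CPM in MG-LCs. P2ry1 had no reads in sorted MG and 0.971 to 22.1 CPM in MG-LCs, at least 110.4-fold higher against the floor. Leaving out MG-LC replicate 1 gave 8 of the 14 higher and 5 lower, compared with 25.8% and 28.9% of all genes. Adora2b then did not pass (-4.04, edgeR adjusted p = 0.082). P2ry14 lies in the same cluster of receptor genes as P2ry12 and P2ry13 and changed in the opposite direction, from 0.108 to 0.262 CPM in MG to 5.91 to 16.1 CPM in MG-LCs.

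**Figure D5:**
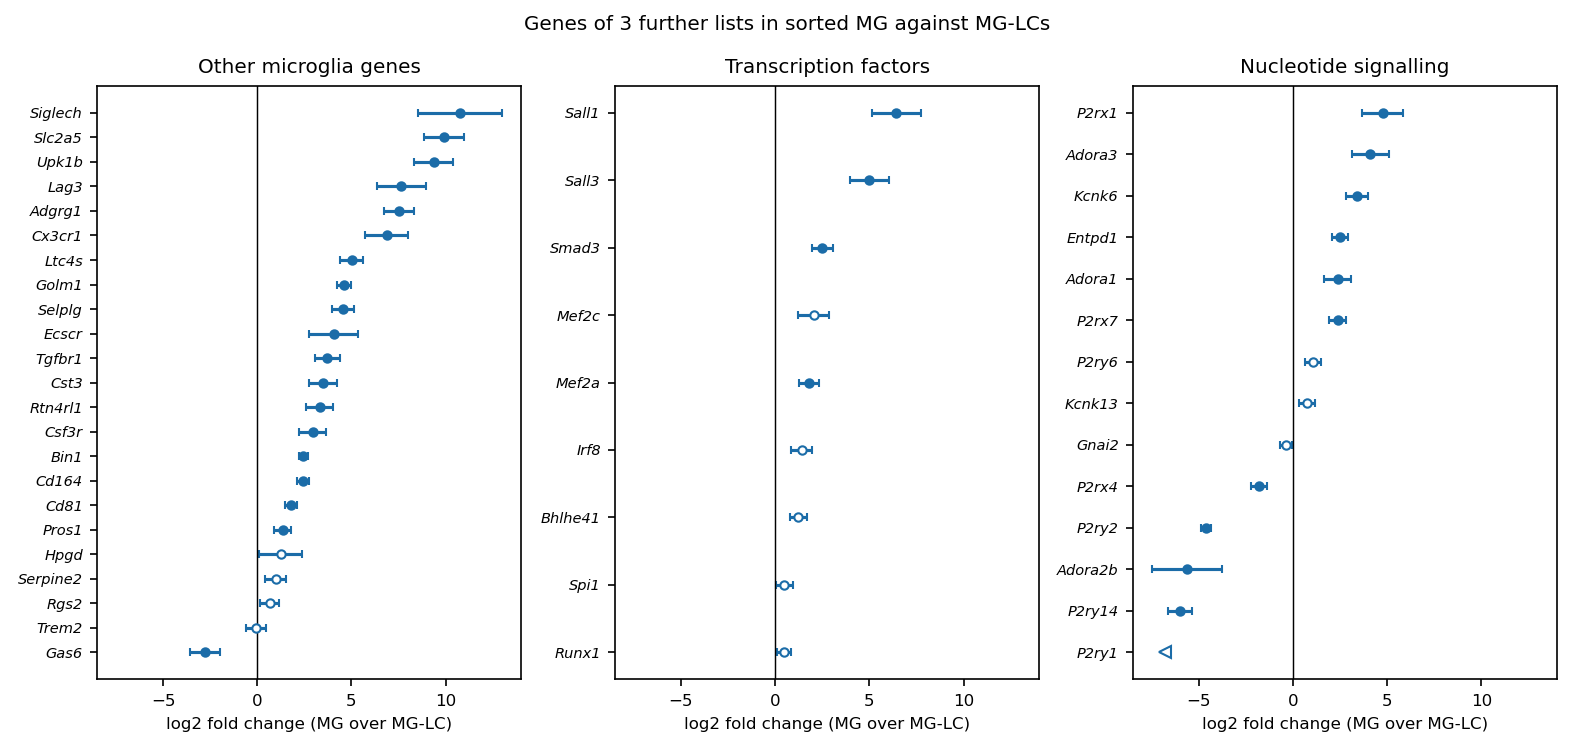
Log2 fold change in sorted MG against MG-LCs (x axis) for further microglia genes, transcription factors and 14 genes of nucleotide signalling, with SE bars derived from the edgeR test. Filled points passed an adjusted p of 0.05 and open points did not, and the triangle for P2ry1 is a bound because sorted MG had no reads of it. Most microglia genes lie to the right of 0, and the nucleotide signalling genes lie on both sides.

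Relatives and neighbours of the 8 genes were described in the same way, and of 18 such genes 10 were tested, with 4 higher in MG and 2 lower, compared with 21.2% and 25.2% of all genes tested. The counts were also 4 and 2 without MG-LC replicate 1, compared with 25.8% and 28.9% of all genes. Med12l, whose body spans P2ry13, had 82.2, 81.3 and 85.4 CPM in MG and 0.719, 0.796 and 1.74 CPM in MG-LCs (log2 fold change 6.21, edgeR adjusted p = 0.000672). The library kit does not keep the strand, so that unspliced reads of overlapping genes could not be separated. Cask, whose body spans Gpr34, did not pass (0.83, edgeR adjusted p = 0.106), but was higher in MG without MG-LC replicate 1 (1.29, 0.00439), where Olfml2a did not pass (3.04, 0.0508). The crystallin Cryba4 (6.04, 0.0117) and the olfactomedin-like genes Olfml2a (3.63) and Olfml2b (3.10, 0.00556) were higher in MG with edgeR, while Cd5l, a secreted macrophage protein and a genomic neighbour of the Fc receptor-like genes, was higher in MG-LCs (-9.87, 0.00369), with 0.727 to 1.36 CPM in MG and 214 to 2233 CPM in MG-LCs. Olfml2a was near the floor, with 0.501 to 1.43 CPM in MG and 0 to 0.171 CPM in MG-LCs.

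The pattern of the 8 genes over the 24 libraries was compared with that of all other genes, as the root mean square of the difference between centred log2 CPM profiles. The genes nearest to the mean profile of the 8 were Thrsp (1.11), Gprasp2 (1.15), Hspb3 (1.2), Gm3248 (1.25) and Adamts16 (1.25), where the median of all genes was 3.44. Thrsp had a mean of 50.6 CPM in sorted MG, 0.246 CPM in MG-LCs and at most 0.179 CPM in any other library. Among the 8 themselves, P2ry12 was closest to P2ry13 (1.81) and Crybb1 (1.83), and P2ry13 and Fcrls were farthest apart (6.14). Taken singly, the nearest gene was A830008E24Rik for P2ry12 (1.28), Med12l for P2ry13 (1.5), Kcnk12 for Gpr34 (1.86), Slc2a5 for Tmem119 (2.22), Sncaip for Fcrls (2.48), Adamts16 and Thrsp for Crybb1 (1.27 each), Arap3 for Olfml3 (2.20) and Ecscr for Sparc (2.09). Ecscr belongs to the further microglia genes described above, with 182 to 202 CPM in sorted MG. After Ecscr, the nearest to Sparc were Mrc2 (2.34) and Col6a3 (2.69), a collagen receptor and a collagen chain. Their mean levels in sorted MG were 68.1 and 20.4 CPM. Without MG-LC replicate 1 the nearest genes to Sparc were Upk1b (1.9), Ecscr (2.07) and Mrc2 (2.38), and Thrsp stayed the nearest to the mean profile (1.01).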

How the data were processed

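RNA sequencing counts of 24 libraries were analysed. Per the study's methods, cDNA was made with a SMARTer kit and libraries with Nextera XT, reads were trimmed with Trimmomatic and aligned and counted with STAR on mm10. The labels list Trimmomatic 0.36, STAR 2.5.2b and hg19, whereas all 45706 identifiers in the table are mouse Ensembl genes, of which 563 had no symbol in the GENCODE annotation (GRCm38). The authors deposited raw read counts per gene, without normalization or filtering.

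The 8 genes and all gene lists were chosen with earlier results of these data known, and members of the other lists were named by rank or with their values. Some genes enter the counts of these lists without their own values being reported here. Counts were tested in R 4.3.3 with edgeR 4.0.16 (quasi-likelihood test, two-sided, TMM, filterByExpr with a minimum count of 10), and p-values were adjusted by Benjamini-Hochberg over all genes tested. Log2 CPM used a prior count of 2. Groups without reads were set to a floor of 3 counts in each library. The procedure was tested on simulated data. Alternatives were limma-voom 3.58.1, DESeq2 1.42.0, RLE size factors, other filters, a fold threshold of 1.5 on the log2 scale, one model of all libraries, replicate number as a block, each other population in turn, and leaving out each library. Levels, nearest genes and list counts without MG-LC replicate 1 were added after the data were seen. Neither labels nor methods say that equal replicate numbers share mice.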

Additional observations from a re-analysis of the deposited data

Results flagged for a closer look

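The signed log2 difference, sorted minus cultured, was higher in MG than in the mean of KCs, PMs and AMs for each of the 8 genes, by the interaction test in edgeR over all 24 libraries. On the log2 scale the contrast was 5.73 for P2ry12 (adjusted p = 2.85e-05), 4.49 for P2ry13 (0.000744), 6.74 for Gpr34 (0.00235), 9.09 for Tmem119 (0.000209), 10.68 for Fcrls (0.000127), 10.99 for Crybb1 (1.51e-07), 10.01 for Olfml3 (3.26e-06) and 8.12 for Sparc (0.0318). Sorted AMs had no reads of Tmem119 and Fcrls, so that their values depend on the prior count, and with the AM values at their bounds they were 7.57 and 9.16. Sparc in PMs and AMs and Fcrls in KCs, PMs and AMs were higher in culture, opposite to the direction in MG. Genes near the floor in the other sorted groups, such as Crybb1, could hardly fall there, so that their contrast followed mainly from the MG libraries. Groups of 3 libraries were not tested for outliers.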

How the results depend on the processing

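In MG against MG-LCs, 5 to 8 of the 8 genes were higher when 1 library was left out, and 6 with DESeq2, which gave no adjusted p for Tmem119 and Sparc. In KCs, 4 genes instead of 2 were higher with all 24 libraries in one model and 2 instead of 1 were lower with limma-voom (1 to 2 with 1 library left out). In PMs, 2 genes instead of 4 were lower with limma-voom, and 0 to 4 with 1 library left out. In AMs, 1 to 2 were higher with 1 library left out. In MG-LCs against the other TRM-LCs, where 0 was called, 4 were called with DESeq2, which called 10.8% of all genes. With RLE size factors 1 was called, and 2 each without a filter on low counts and with a filter of 1 CPM in 3 libraries. The number was 4 with all 24 libraries in one model and 0 to 2 with 1 library left out. With 1 library left out, Sparc in KCs ranged from -2.25 to 3.45 and Gpr34 in AMs from -0.67 to 1.08. Sparc in KCs turned from -0.59 to 0.74 with limma-voom, 1.68 with the replicate block and 3.45 without KC-LC replicate 3, and Gpr34 in AMs turned from -0.18 to 0.07 with limma-voom, 0.16 with the replicate block, 0.09 without AM replicate 2 and 1.08 without AM-LC replicate 1. None of these values passed the test. The cause of these changes was not tested.

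Sorted and cultured libraries with the same replicate number did not deviate together (correlations of -0.046 to 0.056 in MG, -0.001 to 0.029 in KCs, -0.104 to 0.031 in PMs and 0 to 0.03 in AMs). Between cultures the correlations were -0.385 to 0.288, over 0.1 in 5 of 18 pairs, so that the numbers were not taken as pairs. With the replicate block, Sparc lost its call in PMs (-7.87, adjusted p = 0.07) and in the interaction (8.91, adjusted p = 0.0517), and limma-voom gave 9.77 (adjusted p = 0.0761) for the latter. Crybb1, with 2 reads over the sorted AMs and 10 to 22 reads over each cultured group, was the gene closest to the floor of 3 reads in each library.

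Over all genes tested, a threshold of 1.5 on the log2 fold change lowered the counts of genes higher and lower ex vivo in MG from 3063 and 3633 to 1941 and 2362, in PMs from 1637 and 2284 to 1028 and 1379 and in AMs from 3019 and 3412 to 1137 and 1700, and the count lower in KCs from 1964 to 1039 (3279 with all 24 libraries in one model). With 1 library left out, the counts in MG were 1218 to 3862 and 1710 to 4318, in KCs 1520 to 2937 and 1043 to 2696 (lowest without KC-LC replicate 2), and in PMs 795 to 2646 and 1279 to 2787 (lowest without PM replicate 3). Among sorted cells, 4114 genes higher and 3972 lower in MG became 2216 and 1940 with the fold threshold and 1330 and 1868 against each other population. Among cultures, 50 genes higher and 33 lower in MG-LCs became 898 and 618 with DESeq2, 341 and 68 without a filter, 1264 and 556 with all 24 libraries in one model, 2 and 0 with the replicate block, 0 and 0 against each other culture, 843 and 341 without MG-LC replicate 2, 0 and 0 without MG-LC replicate 3, and 0 to 1 and 0 to 7 without any 1 library of the other cultures. Without MG-LC replicate 1, 11 were lower. The fold threshold left 18 of the 33. In the interaction, 1314 genes larger in MG became 2120 with limma-voom and 782 with the fold threshold.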
